A study of Mus musculus with 16 samples.

Results

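Mouse 3T3 cells, an established fibroblast line, were compared after transfection with a synthetic glycine tRNA fragment that carried methylated cytosines or none. The comparison takes 6 libraries, chosen by their titles, of the 8 libraries of 3T3 cells and of 16 in the whole series. In 2 libraries the fragment, named 3'tsRNA-Gly in the titles, had no 5-methylcytosine (no m5C), in 2 it had 4 m5C and in 2 it had 5 m5C. The 4 methylated libraries were pooled against the 2 unmethylated ones, and changes that both methylated versions share were sought. Every one of these wells received the RNA at 100 nM in a lipid transfection reagent. The remaining 2 libraries, from cells given the reagent without RNA ("empty"), entered the estimate of the spread and are shown as levels only. All cells were given fresh medium after 4.5 h and lysed for total RNA at 12 h, and polyadenylated RNA was sequenced with a stranded kit. The labels do not say that replicates came from separate cultures, and the p-values reflect library-to-library spread alone, which may be technical.

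tRNA fragments (tsRNAs) are cut from mature or precursor tRNAs, and the parent tRNAs carry many modified bases. Cytosine methylation of tRNA is laid down by enzymes such as DNMT2 (Trdmt1) and NSUN2, and it is known to protect tRNAs from cleavage. The series title ties Dnmt2 and sperm small RNA to inherited metabolic disorders. The comparison here asks whether the same fragment acts differently on the transcriptome of a receiving cell when its cytosines are methylated.

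The values are estimated read counts and TPM (a level scaled for transcript length that sums to the same total in every library) of 109282 Ensembl transcripts. The gene tables used here paired 0 of these IDs with a gene. Transcripts are therefore given by ID and described by level, length and library, and no gene, pathway or fibroblast marker could be looked up. Estimated counts totalled 16326238 to 27014080 in a library, and replicate 1 was the deeper library in every group. The no m5C libraries held 20830746 and 18005040 counts, the 4 m5C libraries 23150269 and 16326238, and the 5 m5C libraries 27014080 and 18849134. Between 58098 and 64192 transcripts had a value above 0 in a library, and the 10 most abundant took 6.61% to 7.24% of all TPM. After the filter on low counts 44374 transcripts were tested.

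No transcript passed between methylated and unmethylated tsRNA-Gly. In the pooled comparison 0 of 44374 transcripts (0%) had an adjusted p under 0.05 in edgeR's quasi-likelihood test, and the lowest adjusted p was 0.3791. At an unadjusted p under 0.05 there were 2102 transcripts, or 4.74% of those tested. Of these, 1027 (2.31%) were higher and 1075 (2.42%) were lower with the methylated fragment. The median log2 fold change over all tested transcripts was 0.00162. These are bulk libraries, in which RNA per cell and the number of cells that make it cannot be told apart.

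Each methylated version alone gave the same count. With 4 m5C against no m5C, 0 transcripts passed in edgeR, 1971 (4.44%) had an unadjusted p under 0.05 and the lowest adjusted p was 0.1004. With 5 m5C against no m5C, 0 passed, 2169 (4.89%) had an unadjusted p under 0.05 and the lowest adjusted p was 0.2955. Both versions were compared with the same 2 unmethylated libraries, so the comparisons are not independent of each other. Changes shared by both versions at an adjusted p under 0.05 in the pooled comparison therefore numbered 0 as well.

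The call of 0 depended on the tool and on the filter. DESeq2 called 153 transcripts in the pooled comparison, 84 higher and 69 lower, of which 116 met the rule for shared changes. It gave no adjusted p for 30363 of 78304 transcripts. In 75 of the 153, at least 1 of the no m5C, 4 m5C and 5 m5C groups had a rounded count of 0 in both libraries. The share over all transcripts is not given for this count, so it does not set the 153 apart. Both no m5C libraries were at 0 in 39 of the 153, against 619 (1.39%) of the 44374 transcripts tested in edgeR. A mean of at least 100 counts was reached by 57 of the 153, a share similar to the 16334 (36.8%) of the 44374. Groups did not overlap for 123 of the 153, against 6482 of the 44374. Of the 153, 152 were tested in edgeR and 151 had an unadjusted p under 0.05 there. The 153 were chosen by p-value in these same libraries, so these shares describe the set and do not support it. Without the filter on low counts, edgeR called 15 transcripts, 6 higher and 9 lower. On the 44374 filtered transcripts, limma on log2(TPM + 1) called 2, both lower.

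The transcripts with the lowest p in the higher direction were absent or nearly so with the unmethylated fragment. ENSMUST00000174755.7, of 2426 bases, was at 0.00126 and 0.0349 TPM in the no m5C libraries, at 11 and 6.62 TPM with 4 m5C and at 7.36 and 6.35 TPM with 5 m5C. All 4 methylated libraries lay above both unmethylated ones, and so did the empty libraries, at 11.9 and 5.37 TPM. In rounded counts, 1074 reads over the 4 methylated libraries stood against 1 over the 2 unmethylated ones, a ratio of 479 scaled for depth (exact 95% interval 85.7 to 18900, counting error only). It did not pass in the main edgeR fit (adjusted p = 0.3791), and it passed in edgeR without the filter on low counts (adjusted p = 0.00337). The adjusted p was 4.01e-06 in DESeq2 and 0.585 in edgeR with the replicate block. These were the lowest and highest of the alternatives that left no group with a single library. The difference between 5 m5C and 4 m5C was -0.38 ± 0.42 SE on the log2 scale.

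ENSMUST00000132706.7, of 816 bases, was listed at 0 in both no m5C libraries. It was at 3.59 and 3.3 TPM with 4 m5C, at 3.06 and 2.9 TPM with 5 m5C, and at 1.93 and 1.28 TPM in the empty libraries. The 113 reads of the methylated libraries were at least 16.8-fold higher than the floor of 3 counts over the unmethylated group. It did not pass in edgeR (adjusted p = 0.455), and the adjusted p was 0.00377 in DESeq2, within a range of 0.00377 to 0.916 over all alternatives that tested it. For both of these transcripts the unmethylated libraries lay below the empty libraries. The methylated libraries overlapped the empty ones for ENSMUST00000174755.7 and all lay above them for ENSMUST00000132706.7.

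The transcripts with the lowest p in the lower direction were not shared by the methylated versions. ENSMUST00000108939.8, of 1576 bases, was at 4.48 and 4.34 TPM with no m5C and at 4.52 and 4.56 TPM with 5 m5C. It had a rounded count of 0 in both 4 m5C libraries, and the empty libraries held 3.79 and 4.13 TPM. The 165 reads of the no m5C group were at least 56.4-fold above the floor of 3 counts over the 4 m5C group (edgeR adjusted p = 0.1004). For 5 m5C the log2 fold change against no m5C was -0.00032 ± 0.23 SE, with a 95% interval of -0.57 to 0.57. In the pooled comparison it did not pass in the main edgeR fit (adjusted p = 0.3791). It passed in edgeR without the filter on low counts (adjusted p = 0.0157). The adjusted p was 3.37e-05 in DESeq2, within a range of 3.37e-05 to 0.994 over the alternatives. The difference between 5 m5C and 4 m5C had an edgeR adjusted p of 0.04996, just under the threshold. Between the versions, edgeR called 2 transcripts with library totals only, 5 with a mean of at least 100 counts and 34 without the filter. No transcript passed between the versions with RLE factors (lowest adjusted p = 0.0509 in edgeR), with the 6 tsRNA-Gly libraries alone (0.244), with the replicate block (0.291) or without any 1 library.

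ENSMUST00000135310.7, of 4413 bases, showed the same pattern of levels. It was at 1.45 and 1.53 TPM with no m5C, at 2.01 and 1.4 TPM with 5 m5C, at 0 in both 4 m5C libraries, and at 0.944 and 1.02 TPM in the empty libraries. The 174 reads of the no m5C group were at least 59.5-fold above the floor over the 4 m5C group, with an edgeR adjusted p of 0.1026. For 5 m5C the log2 fold change was 0.15 ± 0.28 SE, with a 95% interval of -0.55 to 0.86. The difference between the versions did not pass in edgeR (adjusted p = 0.08615). The pooled adjusted p was 0.435 in the main edgeR fit and 0.0247 in edgeR without the filter on low counts. It was 6.6e-05 in DESeq2, within a range of 6.6e-05 to 0.994 over the alternatives. A pooled mean of both versions thus gave a low p to transcripts that the 4 m5C libraries alone lacked. With the 4 methylated libraries fitted as 1 group, the log2 fold change was -0.99 for ENSMUST00000108939.8 and -0.83 for ENSMUST00000135310.7, with an edgeR adjusted p of 0.994 for each.

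**Figure D1:**
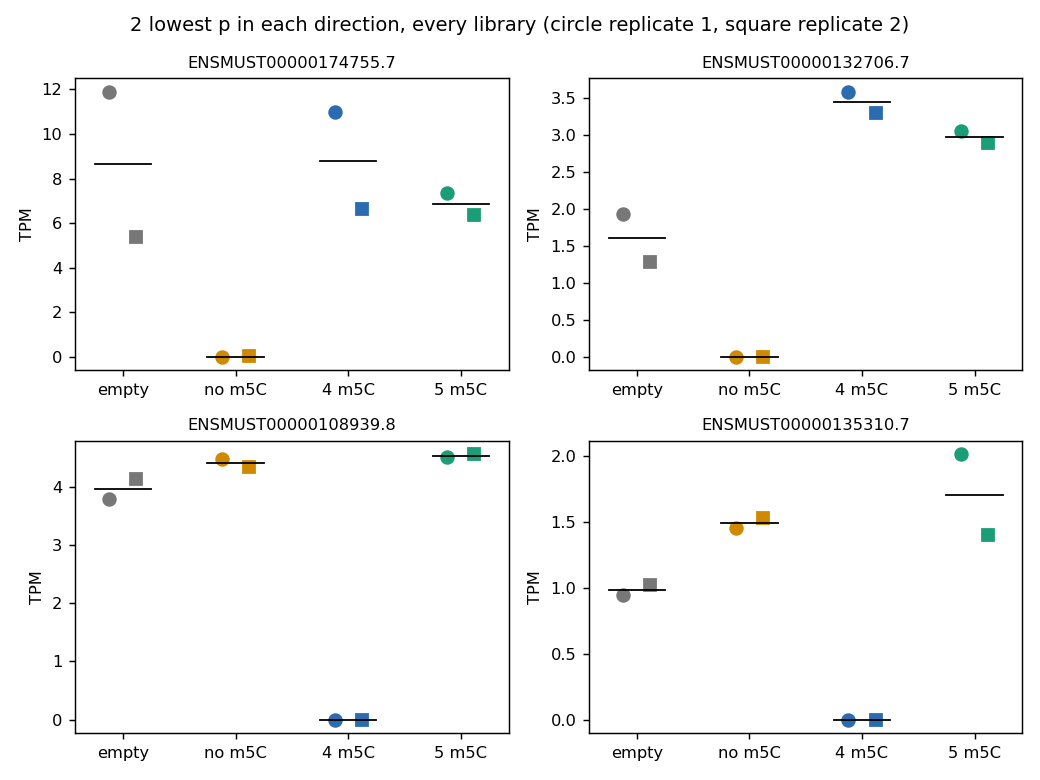
TPM (vertical axes) of the 2 transcripts of lowest p in each direction, in each of the 8 libraries by group; circles are replicate 1, squares replicate 2 and bars the mean of 2 libraries. The upper transcripts are at or near 0 in the no m5C libraries alone, and the lower ones in the 4 m5C libraries alone.

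Of the 2102 transcripts with an unadjusted pooled p under 0.05, 582 (1.31% of all tested) also had an unadjusted p under 0.05 and the same sign in both single-version comparisons. None of them passed after adjustment in the main edgeR fit, and this count is a description. With both versions, 408 (0.919%) were higher and 174 (0.392%) were lower than with the unmethylated fragment. The remaining pooled transcripts included 636 with an unadjusted p under 0.05 for 4 m5C alone, 705 for 5 m5C alone and 171 for neither alone. The count of 582 became 1165 without no m5C replicate 1, 1154 without no m5C replicate 2 and 379 without 5 m5C replicate 2. With library totals as the only scaling there were 571, of which 467 were higher and 104 were lower.

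The shared transcripts were less abundant in the higher direction than in the lower one, as a description of a set chosen by its p-values. Those higher with methylation had a median of 1.68 TPM and 28.8 counts, and 113 of the 408 had a rounded count of 0 in both no m5C libraries. Their median absolute log2 fold change was 1.68. Those lower with methylation had a median of 10.8 TPM and 606 counts, and 21 of the 174 were at 0 in all 4 methylated libraries. Their median absolute log2 fold change was 0.352, and 133 of the 174 lay within 2-fold. Over all tested transcripts the medians were 2.81 TPM, 46.5 counts and 0.208, with 619 transcripts at 0 in both no m5C libraries and 96 at 0 in all 4 methylated ones. A value of 0 in every library is reached more easily in a group of 2 than in one of 4.

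**Figure D2:**
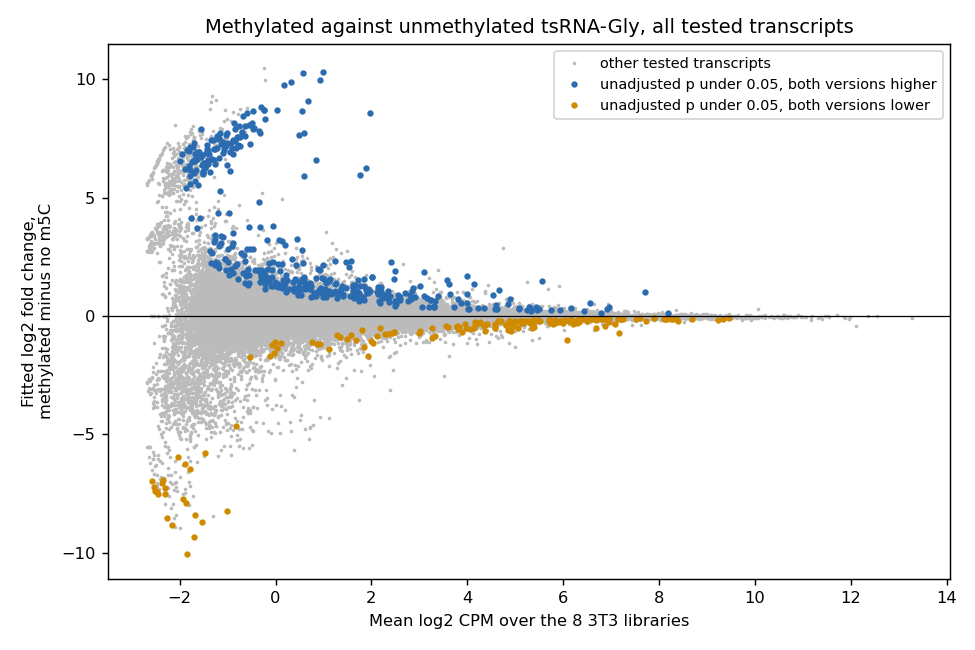
Fitted log2 fold change of methylated minus no m5C (vertical axis) against mean log2 CPM over the 8 libraries (horizontal axis), 1 point for each of 44374 transcripts. The 408 transcripts higher and 174 lower with both versions at unadjusted p are coloured, and the changes of abundant transcripts lie close to 0.

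The 10 shared transcripts of lowest p in the higher direction had adjusted p of 0.379 to 0.455 in edgeR and lengths of 816 to 11303 bases, and 3 of them were at 0 with no m5C. The 10 in the lower direction had adjusted p of 0.455 to 0.511 and lengths of 1504 to 11306 bases, and 3 were at 0 in all methylated libraries. All 4 methylated libraries lay above both unmethylated ones for 3359 transcripts (7.57%) and below both for 3123 (7.04%). Of 16334 transcripts with a mean of at least 100 counts, 129 had a fitted change above 2-fold, against 4757 of all 44374 tested. The groups did not overlap for 64 of the 129 and for 1587 of the 4757. Of the 64, 40 were higher and 24 lower with methylation. Their lowest adjusted p was 0.379 for the higher and 0.996 for the lower ones in edgeR.

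For abundant transcripts the intervals set narrow limits on the pooled change, which is the mean of both methylated versions against no m5C. They do not limit a change in a single version, or opposite changes in the versions, since the pooled change averages these. The intervals were computed on the TMM scale, from replicates not stated to be separate cultures. Of 1194 transcripts with a mean over 100 TPM, 1180 (98.8%) had a 95% interval of the pooled change that lay inside 2-fold in either direction. The same held for 8460 of 9214 (91.8%) at 10 to 100 TPM, for 9427 of 23216 (40.6%) at 1 to 10 TPM and for 1049 of 10750 (9.76%) under 1 TPM. The median standard error of the log2 change was 0.054, 0.0921, 0.369 and 0.686 in these classes, from the most to the least abundant. No transcript over 100 TPM had a fitted change above 2-fold, and 46 between 10 and 100 TPM did, of which 23 had groups that did not overlap. Over all tested transcripts 4757 had such a change, and the groups did not overlap for 1587 of them.

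The median difference between replicates was larger than the median pooled change in the classes given here. At 10 to 100 TPM the median absolute log2 difference between replicates was 0.107 with no m5C, 0.116 with 4 m5C and 0.0936 with 5 m5C, and the median absolute pooled change was 0.0721. Under 1 TPM the replicates differed by 0.636, 0.602 and 0.537 in the same order, and the median absolute pooled change was 0.469. The pooled change is a mean over 6 libraries and the replicate difference is one between 2, so their sizes are not directly comparable.

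**Figure D3:**
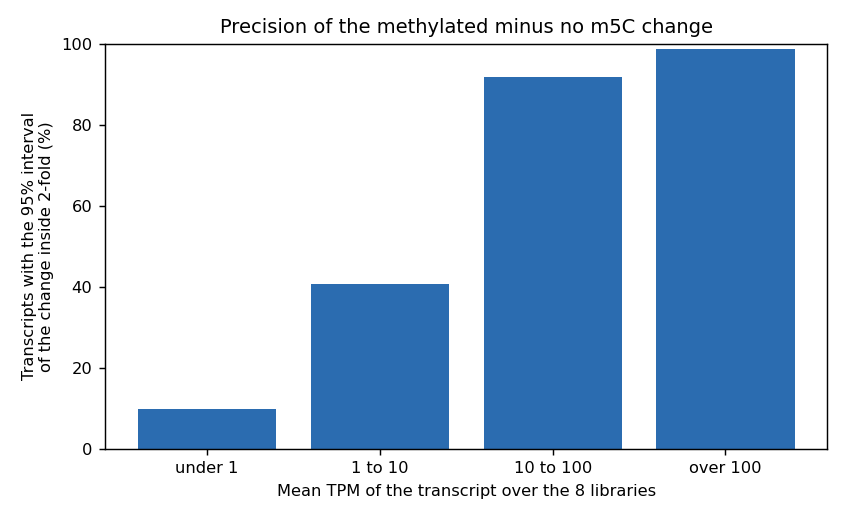
Share of transcripts (%) whose 95% interval of the methylated minus no m5C change lies inside 2-fold, by class of mean TPM over the 8 libraries. The share is 98.8% over 100 TPM and 9.76% under 1 TPM.

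Abundance and direction went together in a way that depended on the scaling. Of the transcripts with a mean of 10 TPM or more and an unadjusted p under 0.05, 139 were higher and 432 lower with methylated tsRNA-Gly on the TMM scale, and 124 and 468 with RLE factors. With library totals only, 245 were higher and 202 lower, and on log2(TPM + 1) in limma 304 were higher and 230 lower. Over all tested transcripts, 48.9% of those with an unadjusted p under 0.05 were higher on the TMM scale, 46.3% with RLE factors, 62.3% with library totals only and 67.5% in limma. The median log2 change of transcripts with 10 TPM or more was -0.0307 on the TMM scale and -0.000274 with library totals only. No direction for abundant transcripts as a class can be given from these values.

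**Figure D4:**
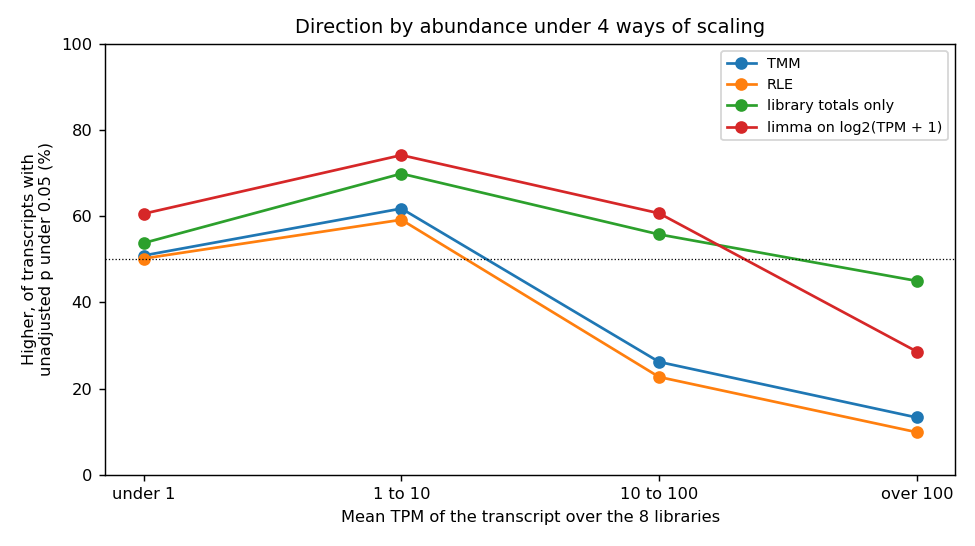
Share (%) of transcripts that were higher with methylated tsRNA-Gly among those with an unadjusted p under 0.05, by class of mean TPM, with 1 line for each way of scaling; the dotted line marks equal numbers. At 10 to 100 TPM the share is 26.2% with TMM and 60.7% in limma.

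Transcripts that were present in one group and at 0 in another were counted for each pair of groups. The rule was a rounded count of 0 in both libraries of one group and at least 20 in both of the other. Of the 44374 tested transcripts, 90 met it between no m5C and 4 m5C and 102 between no m5C and 5 m5C. The same count was 113 between the methylated versions and 96 between no m5C and empty. It was 104 between empty and 4 m5C and 102 between empty and 5 m5C. The counts against the unmethylated libraries were thus 90 to 102, and those of the 3 pairs without them 102 to 113. The difference between these ranges was not tested. At 0 in both no m5C libraries and at 20 or more in all 4 methylated ones were 14 of the 44374 transcripts, and the reverse held for 9. Of these, 5 and 4 also set the no m5C libraries apart from the empty ones.

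Replicates of one group also switched, by a looser rule of 1 library against 1. The counts between groups required both libraries of each group, so the sizes of the counts cannot be compared. Between the 2 libraries of a group, 939 to 1265 of the 44374 tested transcripts were at 0 in one and at 20 or more in the other. The no m5C libraries had 1097 such transcripts, the 4 m5C libraries 1147 and the 5 m5C libraries 939. kallisto divides reads that fit several transcripts of a gene among them. Without gene names the transcripts could not be summed per gene, so a shift between transcripts of one gene and a change of the gene's output cannot be told apart here.

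The methylated versions were also compared with each other, to test the difference between them. In edgeR 2 of 44374 transcripts (0.00451%) passed, both higher with 5 m5C, with adjusted p of 0.04996 each, and 2069 (4.66%) had an unadjusted p under 0.05. ENSMUST00000108939.8 was 1 of the 2. The count became 0 without any 1 of the 8 libraries. DESeq2 called 227.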

How the data were processed

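Each deposited 3T3 table gives, for every transcript, an estimated count and a TPM; the tool was kallisto (no version given) with the build GRCm38, per the submitters' processing notes. Lengths come from the same tables. The authors' annotation release and read filters are not given in the sources used here. Estimated counts were rounded to whole numbers. Libraries were scaled by TMM and transcripts kept by filterByExpr (minimum count 10), and the 4 groups of 2 libraries were fitted together with edgeR 4.0.16 (glmQLFit and glmQLFTest, R 4.3.3). The contrast was the mean of 4 m5C and 5 m5C minus no m5C. P-values were adjusted by Benjamini-Hochberg over all 44374 transcripts, and the threshold was 0.05. Standard errors are the log2 change divided by the root of F, and intervals at 95% follow from them.

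A change was shared when its pooled adjusted p was under 0.05 and both single contrasts had an unadjusted p under 0.05 with the same sign. Alternatives used DESeq2 1.42.0, limma 3.58.1 on log2(TPM + 1) of the deposited TPM, RLE factors, other filters, fewer libraries and a replicate block. Library totals as the only scaling and the shared count at unadjusted p were added after seeing the data. The rule named, without gene names, the 2 transcripts of lowest p in each direction. The members, groups and tests were chosen with earlier results of these data known. The planned gene lists and sums per gene were not run, since no ID matched a gene.

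No replicate pair was identical or agreed within counting noise (chi-square per transcript 7.394 to 8.949). Replicate numbers were not treated as pairs in the main fit. The floor for a count of 0 is 3 counts, 0.111 to 0.184 CPM in a library; intervals and floors cover counting error only. The fit was tested on simulated data. Figures were drawn with matplotlib 3.10.9. The sperm libraries and the sequence of the synthetic fragment were not used here.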

Additional observations from a re-analysis of the deposited data

Results flagged for a closer look

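ENSMUST00000108939.8 is listed because its difference of 5 m5C minus 4 m5C passed the threshold by a narrow margin, and no transcript passed with RLE factors, with the 6 tsRNA-Gly libraries alone, with the replicate block or without any 1 library. The difference was 9.48 on the log2 scale (edgeR adjusted p = 0.04996), a fitted value that depends on the prior count because both 4 m5C libraries had a rounded count of 0. The 201 reads of the 5 m5C group were at least 56.4-fold above the floor of 3 counts over the 4 m5C group. In all, 2 transcripts differed between the methylated versions at that threshold, both higher with 5 m5C, and 1 of them had a count of 0 in both 4 m5C libraries. The count was also 2 with library totals only. It was 5 with a mean of at least 100 counts, 34 without the filter, 10 in limma and 227 in DESeq2.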

How the results depend on the processing

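The count of 0 in the pooled comparison held with RLE factors, library totals only, a mean of at least 100 counts, the 6 tsRNA-Gly libraries alone (in 3 groups, or with the methylated ones as 1 group), the replicate block and without any 1 of the 8 libraries. DESeq2 called 153 in the pooled comparison, 196 for 4 m5C, 147 for 5 m5C, 227 between the versions and 116 shared. Without the filter the counts in the same order were 15, 23, 16, 34 and 10. On log2(TPM + 1) limma called 2, 0, 5, 10 and 2. Between the versions, where the main count was 2, it was 2 with library totals only and 5 with a mean of at least 100 counts. It was 0 with RLE factors, with the 6 libraries alone and with the replicate block. Shared at unadjusted p, 582 became 981 without the filter, 197 with a mean of at least 100 counts, and 379 to 1165 without 1 library. The cause was not tested. With the replicate block, 503 were shared at unadjusted p and 0 passed in the pooled, single-version and shared comparisons. Same-numbered libraries showed little joint deviation (r of -0.0223 to 0.0575 over 6 pairs of groups). These r are taken over all tested transcripts, many with a wide spread between replicates. They cannot show that the numbers carry no pairing, and replicate 1 was the deeper library in every group. The 4 named transcripts kept their direction under every alternative that tested them. They were chosen by their p-values in these same libraries, and each was at or near 0 in a whole group. A turn was therefore unlikely in advance. With the methylated libraries as 1 group the shared count could not be computed, and sums per gene were not run. A library left out of a group of 2 leaves a lone sample that is assumed to vary like the other groups. Precision was low at low levels: under 1 TPM, 1049 of 10750 intervals of the pooled change (9.76%) lay inside 2-fold in either direction.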

Other observations

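The length of the sequenced fragments was taken as transcript length minus effective length for transcripts over 2000 bases. It varied between the libraries, and no test between groups was run. It was 244.8 and 247.8 bases with no m5C, 238.1 and 228.7 with 4 m5C, 251.9 and 251.3 with 5 m5C, and 248.5 and 245.9 in the empty libraries. The no m5C and empty libraries overlapped. The 4 m5C libraries lay below all others and the 5 m5C libraries above all others. The methylated versions thus stood on opposite sides of the unmethylated libraries. Whether this bears on any transcript was not tested.

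Short transcripts had a slightly higher median level in the methylated libraries, a difference that did not pass and was absent among those with more counts. For 2488 tested transcripts of up to 500 bases, the library's median log2 level, relative to all its tested transcripts, was -0.0226 and -0.0202 with no m5C, 0.0654 and 0.104 with 4 m5C, 0.0221 and 0.0573 with 5 m5C, and -0.0297 and 0.000511 in the empty libraries. All 4 methylated libraries lay above the others, by a mean of 0.0836 over the no m5C libraries (two-sided exact permutation p = 0.0667, the smallest that 15 arrangements allow; adjusted p = 0.532 over 16 such classes). Among the 235 of these transcripts with a mean of at least 100 counts the mean difference was 0.00018 (exact permutation p = 1), and the versions lay on opposite sides. The values there were -0.00781 and 0.011 with no m5C, 0.0331 and 0.132 with 4 m5C, and -0.0557 and -0.102 with 5 m5C.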
